A study of Mus musculus with 8 samples.

Results

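The 9 HoxA genes examined here are Hoxa2, Hoxa3, Hoxa4, Hoxa5, Hoxa6, Hoxa7, Hoxa10, Hoxa11 and Hoxa13, the companions of Hoxa9 in the HoxA cluster on mouse chromosome 6. They were taken as every non-control probe of the array that carries one of these gene names, which gave 11 probes on 20 spots of each array, out of 55681 non-control probes. Hoxa3 and Hoxa13 have 2 probes each and the other genes 1. The cells were cultured satellite cells from hindlimb skeletal muscle of C57BL/6J mice, whose age is given as 3 to 4 months. After sorting and culture overnight they received a lentivirus that integrates eGFP cDNA (the control, 4 samples) or Hoxa9-eGFP cDNA (4 samples), and eGFP-positive cells were sorted 5 days later. Both groups thus carry an integrated lentivirus and eGFP, and differ in the Hoxa9 cDNA. No source used here names the promoter that drives the cDNA. Nothing in the labels ties the 4 samples of a group to separate animals, and p-values therefore describe the spread of these samples only, which may be technical. Each sample was hybridised to 1 one-colour Agilent array, and samples are named by group and by the experiment number, 1 to 4, in their titles.

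Hox genes encode homeodomain transcription factors that give cells along the body axis and the limbs their positional identity. In mammals they lie in 4 clusters, HoxA to HoxD, and genes at one end of a cluster (low numbers) act toward the head while genes at the other end (high numbers) act toward the tail and the tips of the limbs. Genes that hold the same number in different clusters are paralogues, and their transcription is set in part by Polycomb and Trithorax chromatin complexes and by retinoic acid. Muscle stem cells of the adult limb keep Hox transcripts that reflect their place of origin in the body.

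A signal on this array is read by a 60-base probe, and the probe decides which stretch of a transcript is counted. The last 30 bases of 4 probes are shown because the results turn on them: those of Hoxa11 and Hoxa7, the HoxA genes with the largest falls, and the 2 probes of Hoxa9, which moved in opposite directions. Capitals mark the polyadenylation signal AATAAA, present in 1 of the 11 HoxA probes and in 10.06% of all non-control probes.
Hoxa11: caaaagactgtaAATAAAgaaaccataacc
Hoxa7: attgattttagttacaaaaatggggggaaa
Hoxa9, the probe that rose: tcctccagttgatagagaaaaacaacccag
Hoxa9, the probe that fell: aaggactgtccgtctccctctgtctcctct
Another pair of probes was designed to opposite strands of one place. The first 30 bases of the brighter Hoxa3 probe, on the minus strand like all HoxA genes, are the reverse complement of a stretch of the probe for 5730446D14Rik, a transcript from the plus strand also known as Hoxaas2, and the probes overlap by 40 bases. The bases are given to show that the array carries a probe for each strand here. Whether each probe reads its own strand alone was not tested.
Hoxa3: gctagatttgttttgagagttttacattcc
5730446D14Rik: ggaatgtaaaactctcaaaacaaatctagc

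Most HoxA genes were lower in the cells that received Hoxa9. Of the 9 genes, 6 fell (Hoxa2, Hoxa3, Hoxa5, Hoxa7, Hoxa10 and Hoxa11), none rose, and Hoxa4, Hoxa6 and Hoxa13 did not pass the test (limma, Benjamini-Hochberg adjusted p under 0.05 over all probes). The falls ran from 2.56-fold for Hoxa10 to 8.42-fold for Hoxa11. The share of HoxA genes called lower was 66.7%, beside 6.99% of all 26971 genes measured, each read from its brightest probe, and 7.43% of genes were called higher. The same 6 genes had every Hoxa9 array below every eGFP array, which held for 12.5% of all genes. Median log2 differences were -1.41 over the 9 HoxA genes and -0.074 over all genes, whose quartiles were -0.43 and 0.30. By probe, 6 of 11 (54.5%) were called lower, beside 6.65% of the 40773 probes tested. In such bulk samples, fewer cells that express a gene and less RNA of it per cell cannot be told apart.

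Levels below are log2 signals relative to the 75th percentile of each array, a quantity that compares arrays but not one probe with another. Every difference is Hoxa9 minus eGFP with n = 4 arrays a group, and its standard error (SE) and adjusted p come from limma. Between 69.6% and 77.5% of spots were well above background on each array, the 75th percentile lay between 456 and 674 signal units, and no spot was saturated. The 11 HoxA probes were well above background on all 8 arrays except the second Hoxa3 probe, which missed that mark on 1 Hoxa9 array. With 4 arrays a group, their number limits precision throughout.

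**Figure D1:**
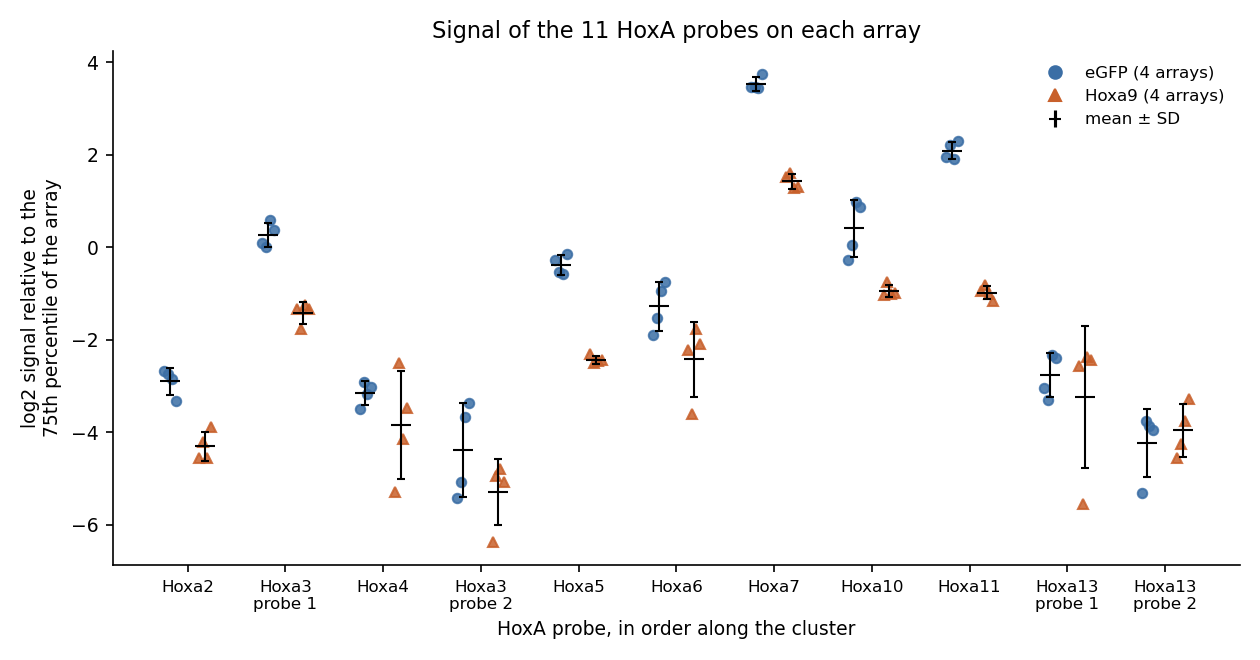
Log2 signal relative to the 75th percentile of the array (vertical axis) for each of the 11 HoxA probes in their order along the cluster (horizontal axis). Circles are the 4 eGFP arrays, triangles the 4 Hoxa9 arrays, and bars the mean and SD. The groups stand apart for Hoxa2, the first Hoxa3 probe, Hoxa5, Hoxa7, Hoxa10 and Hoxa11, and overlap for the other 5 probes.

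At the head end of the cluster, Hoxa2, which patterns the hindbrain and the second pharyngeal arch, was dim in both groups and fell. Its level was -2.68, -2.74, -2.85 and -3.32 on eGFP arrays 1 to 4 and -4.56, -4.20, -4.56 and -3.90 on Hoxa9 arrays 1 to 4 (mm9, chromosome 6, 52112595 to 52112654). All 4 Hoxa9 arrays lay below the lowest eGFP array, though eGFP array 4 and Hoxa9 array 4 were closest to the other group. The signal was 2.65-fold lower (log2 difference -1.41, SE 0.22, adjusted p = 0.003905). Before scaling, the processed signal was 45.8 to 102 units on eGFP arrays and 24.0 to 32.0 on Hoxa9 arrays, and with normexp background correction the difference was -0.57 (adjusted p = 0.01435).

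Hoxa3, needed for the thymus and the parathyroid, was read by 2 probes some distance apart. The brighter probe (52119087 to 52119146) gave 0.085, 0.014, 0.59 and 0.375 on the eGFP arrays and -1.33, -1.78, -1.24 and -1.34 on the Hoxa9 arrays. The groups did not overlap, and the gap between them was wider than the range of either. This was a 3.22-fold fall (log2 difference -1.69, SE 0.19, adjusted p = 0.0009492). The second Hoxa3 probe (52149150 to 52149208), made to an Ensembl transcript and lying between the probes of Hoxa4 and Hoxa5, ranged from -5.43 to -3.37 on eGFP arrays and from -6.37 to -4.79 on Hoxa9 arrays. Its groups overlapped and it did not pass the test (log2 difference -0.91, SE 0.54, adjusted p = 0.3395). It was -0.55 without Hoxa9 replicate 1, -0.57 without eGFP replicate 4 and -0.21 with normexp background correction, not past the threshold in any of these. The mean of both probes differed by -1.30 (adjusted p = 0.02905 over genes).

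Hoxa4, a gene of neck vertebral identity, did not pass the test. Its level (52140287 to 52140346) was -3.49, -2.91, -3.18 and -3.03 on the eGFP arrays and -5.29, -2.51, -4.14 and -3.47 on the Hoxa9 arrays. Hoxa9 array 2 was the highest of all 8 and Hoxa9 array 1 the lowest, so the SD was 1.17 in the Hoxa9 group and 0.25 in the eGFP group. The log2 difference was -0.70 with a 95% confidence interval from -1.89 to 0.50 (adjusted p = 0.4393), and the interval includes falls as large as those of Hoxa2 and Hoxa3. Single arrays moved the value, which was -0.22 without Hoxa9 replicate 1 and -1.15 without Hoxa9 replicate 2, and it was -1.21 with array weights and -0.18 with normexp background correction, in each case not past the threshold.

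Hoxa5, which acts in lung and in the spine at the neck and thorax, fell by a similar amount in each pair of arrays. Its level (52152049 to 52152108) was -0.27, -0.54, -0.58 and -0.13 on the eGFP arrays and -2.31, -2.51, -2.47 and -2.45 on the Hoxa9 arrays. The Hoxa9 arrays lay within a narrow band, with an SD of 0.088 against 0.21 for eGFP. The signal was 4.15-fold lower (log2 difference -2.05, SE 0.15, adjusted p = 0.0001572).

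Hoxa6, a gene of the thoracic part of the axis, was lower in 4 of 4 same-numbered pairs but did not pass the test. Its level (52158194 to 52158253) was -1.90, -1.52, -0.94 and -0.75 on the eGFP arrays and -2.23, -3.60, -1.76 and -2.08 on the Hoxa9 arrays. Hoxa9 array 3 lay above eGFP array 1, which is where the groups overlapped, and Hoxa9 array 2 was far below the rest. The log2 difference was -1.14 (SE 0.43, adjusted p = 0.1307), and without Hoxa9 replicate 2 it was -0.75 (adjusted p = 0.17).

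Hoxa7, which shares that thoracic domain, fell with little spread. Its level (52165626 to 52165685) was 3.48, 3.46, 3.44 and 3.75 on the eGFP arrays and 1.51, 1.61, 1.28 and 1.30 on the Hoxa9 arrays. Every Hoxa9 array was below every eGFP array by more than the whole range of either group. The signal was 4.31-fold lower (log2 difference -2.11, SE 0.15, adjusted p = 0.0001303).

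The position between Hoxa7 and Hoxa10 is that of Hoxa9 itself. Its probe at 52175595 to 52175654 was 63.1-fold higher in the Hoxa9 arrays, as the labels call for, while its probe at 52174165 to 52174224 was 3.34-fold lower. The lower probe read -1.95, -1.71, -1.61 and -1.50 on the eGFP arrays and -3.38, -3.34, -3.49 and -3.52 on the Hoxa9 arrays (log2 difference -1.74, SE 0.15, adjusted p = 0.0002704). Its groups did not overlap, and its difference lies within the range of the HoxA genes that fell. This lower probe shares 16 or more bases with 1 probe of another name on the same strand, and what it reads was not tested. No source used here says which of the 2 probes the transduced cDNA contains, if any.

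Hoxa10, which acts in the uterus, the lumbar spine and the upper part of the limb, fell least of the 6 in the main fit. Hoxa2 was close to it (-1.41), and with normexp background correction Hoxa2 fell less (-0.57, against -1.35 for Hoxa10). The Hoxa10 level (52181922 to 52181981) was -0.27, 0.051, 0.99 and 0.87 on the eGFP arrays and -1.04, -0.75, -1.01 and -0.98 on the Hoxa9 arrays. The eGFP arrays fell into a low pair (1 and 2) and a high pair (3 and 4), and the Hoxa9 arrays lay below both. The signal was 2.56-fold lower (log2 difference -1.35, SE 0.29, adjusted p = 0.01765), and without Hoxa9 replicate 1 it did not pass the test (-1.32, adjusted p = 0.05102). eGFP arrays 1 and 2 shared slide 1, on which the difference was -0.87, beside -1.88 on slide 2 and -1.88 on slide 3. The same 2 eGFP arrays had lower means than eGFP arrays 3 and 4 over the fibroblast markers (-0.33 and -0.53, against 0.36 and 0.20) and over the smooth muscle and pericyte markers (-0.16 and -0.37, against 0.38 and 0.40). On the Hoxa9 arrays the fibroblast means ranged from -0.83 to 0.51 while Hoxa10 stayed between -1.04 and -0.75. The part of slide and of other cells in the Hoxa10 difference was not tested.

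Hoxa11, needed for the forearm and lower leg and for the uterus, had the largest fall of the cluster. Its level (52192107 to 52192166), the average of 10 spots on each array, was 1.95, 2.21, 1.91 and 2.29 on the eGFP arrays and -0.95, -0.81, -1.02 and -1.16 on the Hoxa9 arrays. The highest Hoxa9 array was more than 2 log2 units below the lowest eGFP array. The signal was 8.42-fold lower (log2 difference -3.07, SE 0.16, adjusted p = 5.068e-05). Of eGFP arrays 3 and 4, which had the higher fibroblast and smooth muscle marker means, array 3 gave the lowest and array 4 the highest eGFP value of Hoxa11, and the part of other cells in its difference was not tested.

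Hoxa13, the gene of the digits and the genital tubercle at the tail end of the cluster, did not pass the test with either probe. The first probe (52208856 to 52208915) read -3.05, -3.29, -2.32 and -2.40 on the eGFP arrays and -2.57, -5.56, -2.38 and -2.45 on the Hoxa9 arrays. Its log2 difference of -0.47 (SE 0.70, adjusted p = 0.6923) rested on Hoxa9 array 2, and without that array it was 0.30. The second probe (52208980 to 52209039) ranged from -5.32 to -3.76 on eGFP arrays and from -4.56 to -3.27 on Hoxa9 arrays (log2 difference 0.26, SE 0.41, adjusted p = 0.7098). The 95% confidence intervals of the 2 probes ran from -2.07 to 1.12 and from -0.68 to 1.21.

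**Figure D2:**
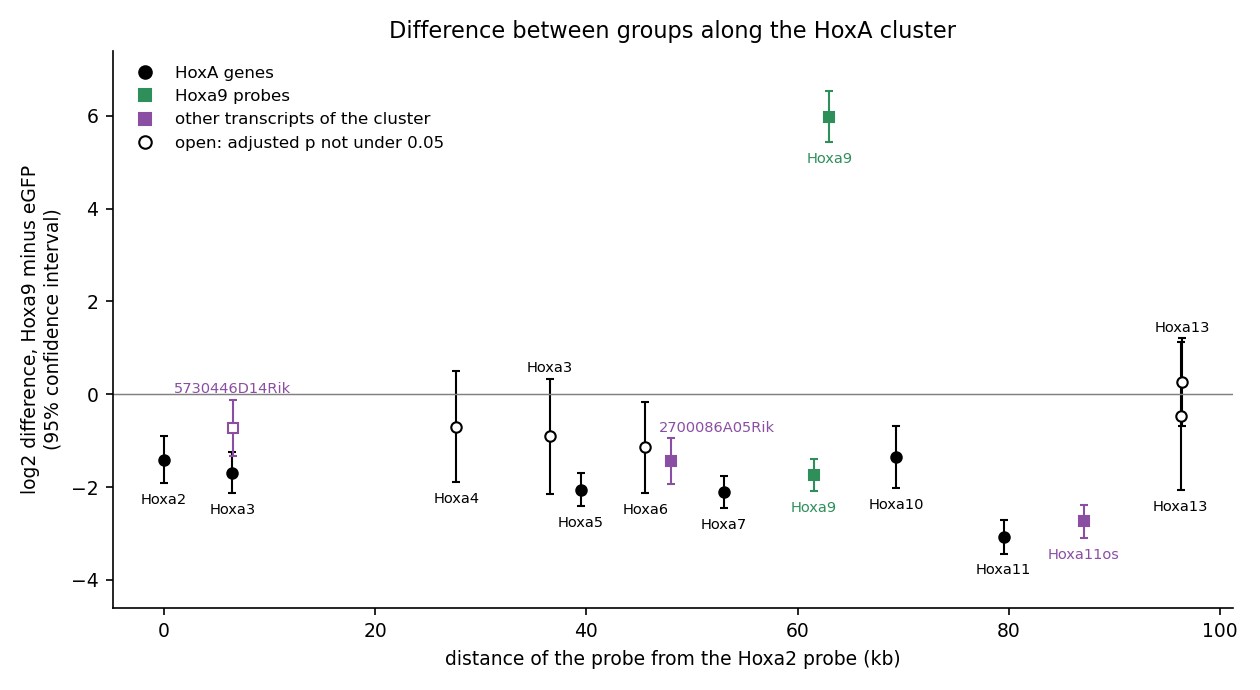
Log2 difference, Hoxa9 minus eGFP, with its 95% confidence interval (vertical axis) against the distance of each probe from the Hoxa2 probe in kb (horizontal axis). Circles are the HoxA genes, green squares the 2 Hoxa9 probes and purple squares other transcripts of the cluster, with open symbols for probes that did not pass the test. Apart from the Hoxa9 probe at 5.98, the values lie between -3.07 (Hoxa11) and 0.26 (the second Hoxa13 probe).

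The size of the fall varied along the cluster without a steady trend from head to tail. In order the gene differences were -1.41, -1.69, -0.70, -2.05, -1.14, -2.11, -1.35, -3.07 and -0.47. Whether neighbours differed in their response was tested by the log2 ratio of neighbours within each array, with an exact two-sided permutation test over the 70 splits of the 8 arrays and adjustment over 8 pairs. The Hoxa11 to Hoxa10 log2 ratio was 1.68 ± 0.63 (SD, n = 4) in eGFP arrays and -0.039 ± 0.11 in Hoxa9 arrays. The difference was -1.72 (exact permutation p = 0.0286, the smallest that unpaired splits can give, adjusted 0.19). Hoxa10 and Hoxa11 made the only pair of the 8 with an unadjusted p under 0.05, and 0 pairs passed after adjustment. With normexp background correction 6 pairs did, each at an adjusted exact p of 0.0381. With 8 pairs, at least 5 would have to reach the smallest p for any to pass adjustment, so a single differing pair could not pass and the count of 0 does not show that neighbours responded alike. The separate 95% confidence intervals of the differences were -3.43 to -2.72 for Hoxa11 and -2.02 to -0.69 for Hoxa10.

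The falls were present in every same-numbered pair of arrays and on each slide. Each of the 6 genes was lower in 4 of 4 pairs, which held for 23.9% of all genes, and Hoxa6 was too. On slides 1, 2 and 3, Hoxa11 differed by -3.24, -2.79 and -3.31, Hoxa7 by -2.17, -1.88 and -2.47, and Hoxa5 by -2.04, -1.83 and -2.33. Hoxa3 differed by -1.39, -2.14 and -1.61, and Hoxa2 by -1.18, -1.53 and -1.25. Fitting slide as a block left 6 HoxA genes called lower. The smallest difference within a pair for a called gene was -0.58, in Hoxa2 of experiment 4.

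**Figure D3:**
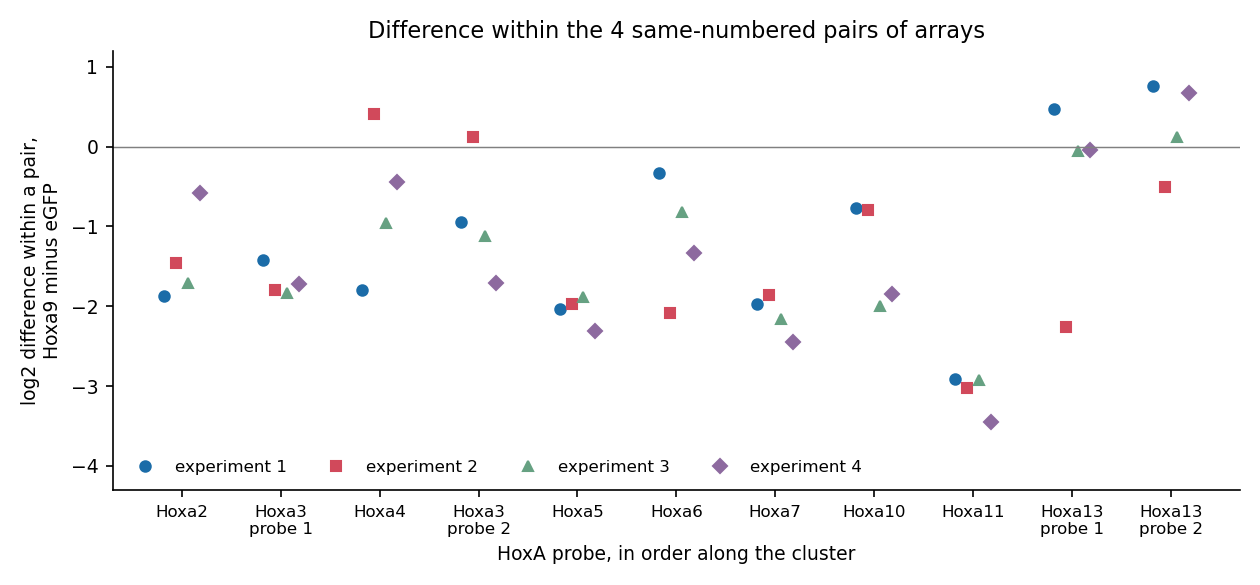
Log2 difference, Hoxa9 minus eGFP, within each of the 4 pairs of arrays that share an experiment number (vertical axis), for the 11 HoxA probes in order along the cluster (horizontal axis), 1 symbol per experiment. All 4 points lie below 0 for Hoxa2, the first Hoxa3 probe, Hoxa5, Hoxa6, Hoxa7, Hoxa10 and Hoxa11, while Hoxa4, the second Hoxa3 probe and both Hoxa13 probes have points on each side.

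Averaged over the 9 genes, the HoxA level was -0.68, -0.59, -0.33 and -0.26 on eGFP arrays 1 to 4 and -2.09, -2.23, -1.92 and -1.84 on Hoxa9 arrays 1 to 4. The groups were separated by more than the range of either. Among 15764 candidate genes outside the cluster, the patterns most like this mean over the 8 arrays were those of Hoxd4 (Pearson r = 0.993), Tnfrsf1b (0.992), Bpifb4 (0.992), Mboat1 (0.992) and Bricd5 (0.991). These correlations are a description and contain the difference between groups. Correlations of the deviations from the group means were 0.84, 0.83, 0.82, 0.79 and 0.78 in the same order, over arrays that share their scaling. The genes were picked by their r over the same 8 arrays, which favours high values here, so these are not separate evidence.

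Transcripts that lie among the HoxA genes were examined on their own probes. Hoxa11os, the antisense transcript of Hoxa11 from the plus strand, read 3.33, 3.55, 3.15 and 3.54 on the eGFP arrays and 0.78, 0.75, 0.53 and 0.54 on the Hoxa9 arrays. The groups did not overlap, and the signal was 6.67-fold lower (log2 difference -2.74, SE 0.15, adjusted p = 5.4e-05), beside 8.42-fold for Hoxa11. The transcript 2700086A05Rik, also known as Hoxaas3 and read on the minus strand between the probes of Hoxa6 and Hoxa7, fell 2.72-fold (log2 difference -1.44, SE 0.22, adjusted p = 0.003255). Its probe is on the strand of the HoxA genes, unlike those of Hoxa11os and Hoxaas2, and which transcript it reads was not tested. Hoxaas2 (5730446D14Rik), whose probe is opposite that of Hoxa3, was lower in 4 of 4 pairs and did not pass the test (log2 difference -0.72, adjusted p = 0.1223). 9530018H14Rik, next to Hoxa13, did not pass the test either (0.22).

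Of the flanking genes tested, Cbx3 alone passed the test. Hibadh (0.17), Tax1bp1 (0.17), Hnrnpa2b1 (-0.36), Nfe2l3 (0.59) and Snx10 did not pass. Cbx3, which encodes a heterochromatin protein, was lower (log2 difference -0.79, adjusted p = 0.009822), but its other probe did not pass (-0.66, adjusted p = 0.2452). Skap2, the gene beyond the head end, was at -7.33 and not above background on eGFP array 1, and its other 3 pairs differed by -0.85, -0.70 and -0.42. Evx1, Evx1os, Hottip and Jazf1 did not have a probe above background on enough arrays to be tested.

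The HoxA genes were next set beside the Hox genes of the other clusters. Of 28 listed, 22 were measured, of which 11 were lower, 2 higher and 9 not called, with a median log2 difference of -1.02. Among all genes measured, 6.99% were lower and 7.43% higher. In HoxB 3 of 8 were lower and 1 higher, in HoxC 5 of 9 were lower and none higher, and in HoxD 3 of 5 were lower and 1 higher. Among paralogue groups 1 to 8 the count was 8 of 14 lower with a median of -1.14, and among groups 9 to 13 it was 3 of 8 with a median of -0.55. The HoxA cluster had 6 of 9 lower and a median of -1.41, and the difference between clusters was not tested.

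The paralogues of the HoxA genes were called in both directions, but of the 2 called higher only Hoxb3 was above background on eGFP arrays. The 6 HoxA genes that fell had 9 measured paralogues in the other clusters, of which 4 were lower, 2 higher and 3 not called. The 3 HoxA genes that did not pass had 6, of which 3 were lower, 0 higher and 3 not called. Over all genes measured, 6.99% were lower and 7.43% higher, and a difference between these 2 sets of paralogues was not tested. Beside Hoxa5, both Hoxb5 (-1.18, adjusted p = 0.003525) and Hoxc5 (-1.64, SE 0.12, adjusted p = 0.0001614) were lower. Beside Hoxa7, Hoxb7 was lower (-1.11, adjusted p = 0.004057). Beside Hoxa10, Hoxc10 fell by 0.73 (adjusted p = 0.04737), while Hoxd10 was at least 3.43-fold higher, no eGFP array reading it well above background. Hoxd10 thus passed the filter only through the group where it was high, and its call as higher is not independent of that filter. Beside Hoxa3, Hoxb3 was higher (log2 1.45, SE 0.22, adjusted p = 0.003852) and Hoxd3 did not pass the test (-1.17). Hoxb2 (-0.35), the paralogue of Hoxa2, and Hoxc11 (0.16), that of Hoxa11, did not pass either. Beside Hoxa4, which did not pass the test, Hoxb4 (-0.92), Hoxc4 (-1.11) and Hoxd4 (-2.78, SE 0.18, adjusted p = 8.87e-05, well above background on 2 Hoxa9 arrays) were all lower. The paralogues of Hoxa6, Hoxb6 (0.092) and Hoxc6 (-0.42), and that of Hoxa13, Hoxc13 (-0.20), did not pass. Hoxd8, with no HoxA paralogue, fell by 3.14 (SE 0.22, adjusted p = 0.0001325).

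**Figure D4:**
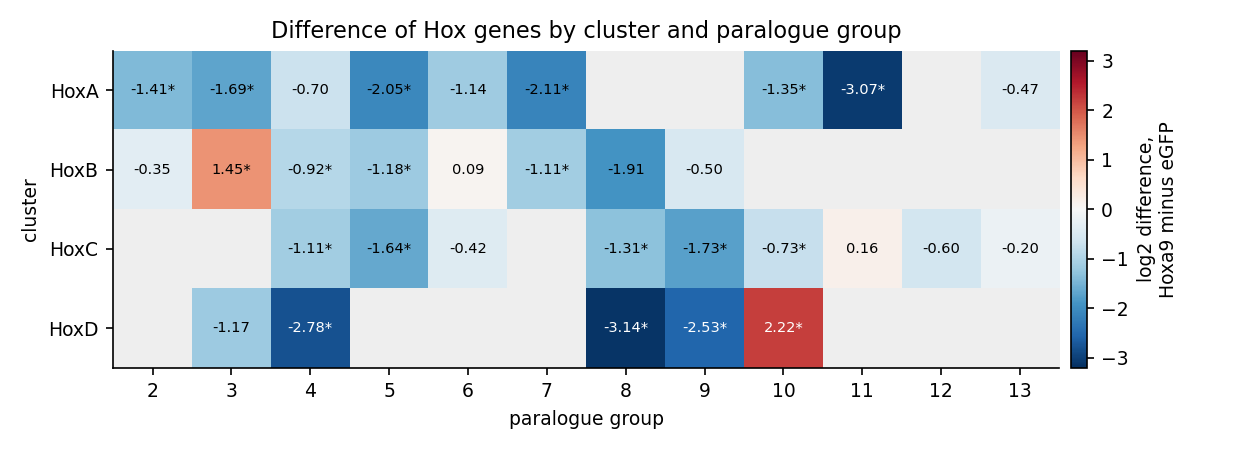
Log2 difference, Hoxa9 minus eGFP, of the Hox genes measured, by cluster (vertical axis) and paralogue group (horizontal axis); blue is lower in the Hoxa9 arrays, red higher, an asterisk marks an adjusted p under 0.05, and grey cells and the Hoxa9 position hold no value. The HoxA line holds 6 marked falls, and the 2 marked rises of the grid are Hoxb3 (1.45) and Hoxd10 (2.22). Hoxd10 passed the filter through its Hoxa9 arrays alone.

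Of 33 Polycomb and Trithorax genes, which maintain Hox transcription states, 4 were higher and 3 lower, with a median of -0.24. Over all genes measured, 7.43% were higher and 6.99% lower. Ezh1, a histone H3 methyltransferase subunit, rose by 1.37 (SE 0.16, adjusted p = 0.0009115). Ezh2, its alternative in the same complex, fell by 1.73 (SE 0.23, adjusted p = 0.001893), and Cbx2, a reader subunit of Polycomb complexes, fell by 1.23 (SE 0.18, adjusted p = 0.002895). Of 16 measured retinoic acid genes 5 were higher and 1 lower, with a median of 0.25. Cyp26b1, which breaks down retinoic acid, fell by 1.89, Dhrs3, which lowers retinaldehyde, rose by 2.49, and the receptor gene Rarb rose by 1.71. No relation between these genes and the HoxA genes was tested.

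Promoter sequences from RefSeq (GRCm38.p6, 250 bases before to 50 after the start) were found for 8 of the 9 HoxA genes, all but Hoxa4, in 9 windows. The only Hoxa3 window lies between those of Hoxa6 and Hoxa7, and other starts of Hoxa3 were not examined. The median window held 20 CpG dinucleotides and 57.3% GC, beside 7 and 52.7% over all 32851 promoters. Among 4 motifs known from Hox and TALE homeodomain proteins and sought on both strands, TTTATGG was in none of the 9 windows and in 2.75% of all promoters. The motif TTTACGA was likewise in none of the windows, beside 0.6% of promoters in the table. No window held TGATTTA, which 2.97% of promoters do. The last of the 4, TGACAG, occurred in 2 windows, those of Hoxa2 and Hoxa3, and in 19.18% of all promoters. The 250 bases before the start are shown for these genes, with the motif or its complement in capitals, and for Hoxa11, which fell the most and holds none of the 4. A match is a description of the letters and not a binding site.
Hoxa2, GRCm38.p6 chr6:52164832-52165081, minus strand: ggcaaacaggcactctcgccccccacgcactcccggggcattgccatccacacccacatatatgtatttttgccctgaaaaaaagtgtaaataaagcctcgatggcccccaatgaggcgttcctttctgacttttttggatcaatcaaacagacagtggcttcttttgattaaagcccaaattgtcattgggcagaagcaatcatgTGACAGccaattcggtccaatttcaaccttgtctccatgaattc
Hoxa3, GRCm38.p6 chr6:52213068-52213317, minus strand: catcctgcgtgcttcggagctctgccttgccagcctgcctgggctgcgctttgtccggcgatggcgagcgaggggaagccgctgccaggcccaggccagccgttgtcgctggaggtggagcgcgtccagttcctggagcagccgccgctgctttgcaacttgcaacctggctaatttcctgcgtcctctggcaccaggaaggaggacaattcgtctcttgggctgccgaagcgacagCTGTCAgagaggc
Hoxa11, GRCm38.p6 chr6:52245811-52246060, minus strand: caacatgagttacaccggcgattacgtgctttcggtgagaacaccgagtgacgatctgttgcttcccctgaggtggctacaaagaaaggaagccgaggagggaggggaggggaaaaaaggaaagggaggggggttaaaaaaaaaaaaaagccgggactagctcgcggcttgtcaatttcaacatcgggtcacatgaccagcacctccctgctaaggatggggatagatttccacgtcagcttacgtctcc

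The labelled cell type was checked by markers. Of 12 satellite cell and myoblast markers 11 were measured, with a mean level of 3.52 to 3.66 on eGFP arrays and 2.52 to 2.91 on Hoxa9 arrays. Of these 6 were lower and 0 higher, and Calcr was not above background on any array. Mean levels on eGFP and Hoxa9 arrays were -0.53 to 0.36 and -0.83 to 0.51 over 10 fibroblast markers (2 higher, 2 lower), and -0.37 to 0.40 and -0.53 to 0.47 over 8 smooth muscle and pericyte markers (1 higher, 2 lower). They were -2.01 to -1.58 and -2.81 to -2.02 over 4 endothelial markers (none called), and -0.82 to -0.20 and -0.30 to 0.51 over 7 blood cell markers (1 higher). Over 4 Schwann cell markers they were -1.35 to -1.06 and -2.75 to -1.77 (1 lower), and over 2 tendon cell markers 1.19 to 1.73 and 0.84 to 1.07 (1 lower). Dpt, Kcnj8, Tie1 and Tnmd were not above background on any array. Satellite cell, Schwann cell and tendon cell means were thus lower on every Hoxa9 array than on any eGFP array, as the 6 HoxA genes were. Endothelial means were lower too but nearly met, at -2.013 on the lowest eGFP array and -2.022 on the highest Hoxa9 array. The part of these cells in the HoxA differences was not tested. Over the whole array 2712 probes were lower and 2781 higher, with 1668 lower without eGFP replicate 2. Of all genes, each read from its brightest probe, 6.99% were lower and 7.43% higher.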

How the data were processed

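Expression was measured in 8 samples, 4 per group, on 1-colour Agilent mouse 8x60K arrays, from 0.1 ug of RNA labelled with Cy3 per the labels' protocols. The deposited intensity values are scanner output that the authors made with Agilent Feature Extraction 10.7.3.1, per the submitters' processing notes. The software removed background and spatial trends within each array but applied no scaling across arrays, and the file headers give mm9 as the build of the probe positions. Another deposited table, of processed values, is treated as a score because 86.1% to 87.3% of its cells lack the decimal point. With the point put back, its column medians were -3.36, -3.23, -3.11 and -3.08 (eGFP) and -3.24, -3.26, -3.22 and -2.95 (Hoxa9). On every array, 99.998% of probes or more matched the scanner value in log2 to within 0.05 after adding 1 constant, so its scale is log2 with no centring by gene and the same direction, while the origin of the constant stays unknown. It served as an alternative. 0 columns were left unmapped.

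From the deposited intensity the log2 signal was taken, marked and control spots were left out (180 of 55681 probes), repeated spots were averaged, and each array's 75th percentile was subtracted. Probes reaching the well-above-background flag on 4 or more of the 8 arrays (40773) were tested with the moderated two-sided test of limma 3.58.1 (R 4.3.3; lmFit, then eBayes) at a Benjamini-Hochberg adjusted p of 0.05 over these probes, with group as the only term. A gene was read from its brightest kept probe. The fit was tested on simulated data. Named genes are all HoxA probes, the tested neighbours, up to 3 called genes of lowest adjusted p of each other list, and the 5 genes most like the HoxA mean. The other measured paralogues of the HoxA genes were added after their values were seen. Cell type marker lists were given as counts and means. For a probe below background in a whole group, the fold is a bound, set against the lowest signal well above background of each array or the probe's signal if that is higher. Members, lists and tests were chosen with earlier results of these data known.

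Deviations from the group means correlated at 0.124 to 0.217 in the 4 same-numbered pairs of arrays, all over the limit of 0.1, so the experiment numbers were taken to pair the samples, although 2 of 12 unlike pairs were over it too. These were eGFP 4 with Hoxa9 3 (0.172, on the same slide) and eGFP 3 with Hoxa9 4 (0.117). Same-numbered pairs 3 and 4 gave 0.124 and 0.168, so the values do not single out the pairing of these 2 experiments. The main fit did not use these pairs, which entered only as an alternative, the replicate block. The arrays lay on 3 slides, each with both groups. Alternatives were other scalings, background correction and filters, the deposited table, the replicate block, the slide as a block, array weights, an intensity trend, omission of single arrays and a 2-fold minimum. Gene names were updated through a RefSeq table for 27656 probes. The exon or untranslated region each probe reads was not analysed here.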

Additional observations from a re-analysis of the deposited data

Results flagged for a closer look

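Of 22 groups of 4 arrays (11 HoxA probes in each group), 3 held an array that stood apart from the other 3 by most of the group's range, where chance gives about 1 in 20. For Hoxa7, eGFP array 4 was at 3.748, above the other eGFP arrays (3.44 to 3.479). For the first Hoxa13 probe, Hoxa9 array 2 was at -5.555, below the others (-2.574 to -2.383). For the second Hoxa13 probe, eGFP array 1 was at -5.32, below the others (-3.949 to -3.764). Both low Hoxa13 readings lay on signals of 11.3 and 16.4 units, close to background, and each was still marked well above background.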

How the results depend on the processing

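Hoxa2, Hoxa3 (brighter probe), Hoxa5, Hoxa7 and Hoxa11 stayed lower and past the threshold under all 19 alternatives, with Hoxa11 between -3.13 and -2.81. Hoxa10 lost its call without Hoxa9 replicate 1 (-1.32, adjusted p = 0.05102, over all alternatives 0.001755 to 0.05102), and the count of HoxA genes lower ran from 5 to 6 when each array was left out. With the replicate block the count was 6, and the block changed no call of a HoxA gene. In that limma fit the adjusted p of the 6 genes ran from 0.001966 (Hoxa11) to 0.03724 (Hoxa10), each larger than without the block. The first Hoxa13 probe turned to 0.13 with array weights, for which the cause was not tested, and to 0.30 without Hoxa9 replicate 2, with a range of -0.76 to 0.30 when each array was left out. The second turned to -0.10 without eGFP replicate 1, with a range of -0.10 to 0.46. Over all probes, 1572 were lower with a 2-fold minimum, 2770 with the replicate block, and 1668 to 2433 when each array was left out. With normexp background correction 6 neighbouring pairs differed, against 0, and the cause was not tested. Signals of Hoxa2, Hoxa4, Hoxa13 and the second Hoxa3 probe were near background, which limits them.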
